A study of Mus musculus with 6 samples.

Results

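The genes described here encode the semaphorins and their plexin receptors, the ephrins and their Eph receptors, the Slit ligands and Robo receptors, and the netrins and Unc5 receptors. The families were chosen with earlier results of these data known. Their genes were taken by symbol and made up 68 of the 26264 genes in the expression table. They comprised 20 semaphorin genes, 10 plexin rows, 14 Eph receptor genes, 8 ephrin genes, 7 Robo and Slit genes and 9 netrin and Unc5 rows. A pair of these rows are not receptors of the families: Plxna4os1 is a noncoding RNA that overlaps Plxna4, and Unc5cl encodes an Unc5C-like intracellular protein. Expression was measured in endothelial cells sorted by their CD31 surface protein from 1 lobe of mouse liver. C57BL6 mice had eaten a diet with 1200 ppm PLX5622 or a control diet for 1 month, and each diet gave 3 libraries labelled as biological replicates. PLX5622 is an inhibitor of the CSF1 receptor, the kinase on which most tissue macrophages depend, and the series asked whether it acts on cholesterol metabolism in endothelium outside the brain.

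These proteins were named for steering growing axons, and blood vessels use the same signals. Secreted class 3 semaphorins bind neuropilins and class A plexins or, for Sema3E, plexin D1 directly, and plexins then act on small GTPases and on integrin adhesion. Ephrins and Eph receptors are both held in the cell membrane, so they signal where cells touch, and the pairing of ephrin-B2 on arteries with EphB4 on veins is a classical mark of vessel identity. Robo4 is a Robo receptor found mostly in endothelium, and Unc5B, a netrin receptor of vessels, has been reported to bind it. Netrin-4 is a laminin-like protein of basement membranes.

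Over the 15097 genes of the authors' deposited comparison the libraries held between 14517982 and 32732322 reads, as recovered from the deposited values. Reads of other genes are not included. Pecam1, which encodes CD31, averaged 1712 ± 148 TPM in PLX5622 libraries and 1682 ± 259 TPM in control libraries (SD, n = 3 each). TPM is a share of transcripts corrected for gene length. The libraries numbered 1 of both diets stood apart from the rest: their summed level of 7 sinusoidal endothelial markers was 5741 TPM on PLX5622 and 5413 TPM on control, while the other libraries had 8079 to 8111 TPM on PLX5622 and 9333 to 9776 TPM on control. Their 5 central vein markers summed to 3675 TPM on PLX5622 and 3629 TPM on control, while the other libraries had 2090 to 2819 TPM on PLX5622 and 2252 to 2276 TPM on control. Markers of Kupffer cells, the liver macrophages, summed over 11 genes to between 71.1 and 111 TPM in PLX5622 libraries and to between 118 and 200 TPM in control libraries, and none of the 11 was at 0 in any library. All 11 had a log2 fold change below 0, and 0 of them passed the test described below. Csf1r, the target of the drug and a macrophage gene, averaged 2.87 ± 1.49 TPM on PLX5622 and 7.27 ± 1.35 TPM on control (SD, n = 3 each). The 10 hepatocyte markers summed to between 1129 and 2188 TPM on PLX5622 and to between 1692 and 4218 TPM on control, with the highest sum in control replicate 1, and 8 of the 10 were below 0. Alb, the hepatocyte gene of serum albumin, had 552, 442 and 978 TPM on PLX5622 and 2368, 1135 and 929 TPM on control.

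Most of the guidance genes were detected, and a few dominated each family. By the mean over the 6 libraries, 15 members stood at 100 TPM or above, 13 between 10 and 100 TPM, 21 between 1 and 10 TPM and 15 below 1 TPM, and 4 were listed at 0 in every library. Those 4 were Sema3e, Epha5, Unc5c and Unc5d. The netrin gene Ntn4 had the highest level, followed by Plxnd1, Robo4, Sema3f, Ephb4, Efnb1, Plxnc1 and Efna1. Ntn4 ranked within the top 0.807% of all genes in the table, Plxnd1 within 0.845%, Robo4 within 0.956%, Sema3f within 1.2% and Ephb4 within 1.28%. The library ranges of neighbours in this order overlapped. The summed level of all 68 members was 4884 ± 169 TPM in PLX5622 libraries and 5041 ± 458 TPM in control libraries (SD, n = 3 each).

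**Figure D1:**
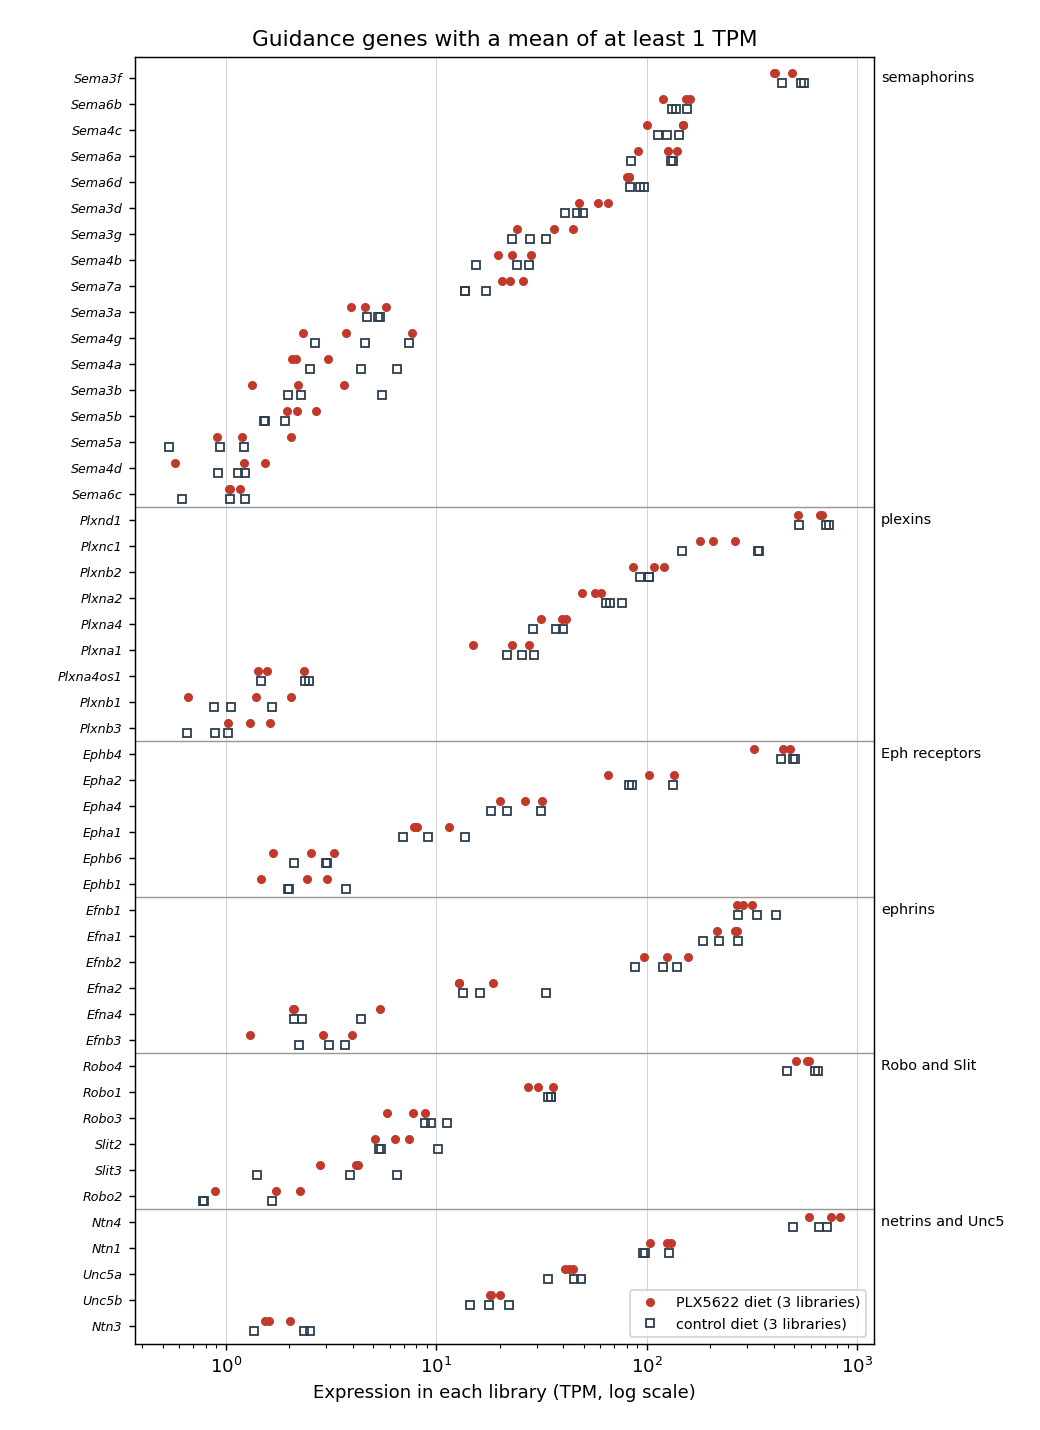
Expression in TPM on a log axis of the 49 guidance genes that averaged 1 TPM or more, by family. Filled circles are the 3 PLX5622 libraries and open squares the 3 control libraries; Ntn4, Plxnd1, Robo4, Sema3f and Ephb4 lead, and the diets overlap in all but 5 genes.

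The promoters of the guidance genes are shown for 4 members that carry the results below. Sema7a and Plxna2 were the members with the smallest p-values between diets. Robo4 and Robo3 are neighbours on chromosome 9 that differed widely in level. Each sequence runs from 250 bases before to 50 bases after the gene's start, was matched by symbol, and comes from RefSeq on build GRCm38.p6, while the authors used mm39. Capitals mark GGGCGG, the GC box of SP1 factors, and the ETS-type words CCGGAA and CAGGAAG, searched on both strands.
Sema7a, chr9:57939862-57940161, plus strand: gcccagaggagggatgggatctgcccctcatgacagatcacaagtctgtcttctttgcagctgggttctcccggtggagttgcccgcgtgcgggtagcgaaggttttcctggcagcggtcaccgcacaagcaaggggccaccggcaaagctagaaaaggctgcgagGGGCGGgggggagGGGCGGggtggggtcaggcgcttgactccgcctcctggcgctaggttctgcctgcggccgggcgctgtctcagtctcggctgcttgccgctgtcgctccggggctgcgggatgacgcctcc
Plxna2, chr1:194619579-194619878, plus strand: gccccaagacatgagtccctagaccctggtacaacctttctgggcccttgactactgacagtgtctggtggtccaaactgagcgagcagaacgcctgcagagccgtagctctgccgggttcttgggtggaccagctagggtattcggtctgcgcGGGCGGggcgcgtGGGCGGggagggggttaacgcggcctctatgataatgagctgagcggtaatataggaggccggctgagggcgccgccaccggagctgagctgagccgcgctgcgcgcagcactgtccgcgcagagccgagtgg
Robo4, chr9:37401722-37402021, plus strand: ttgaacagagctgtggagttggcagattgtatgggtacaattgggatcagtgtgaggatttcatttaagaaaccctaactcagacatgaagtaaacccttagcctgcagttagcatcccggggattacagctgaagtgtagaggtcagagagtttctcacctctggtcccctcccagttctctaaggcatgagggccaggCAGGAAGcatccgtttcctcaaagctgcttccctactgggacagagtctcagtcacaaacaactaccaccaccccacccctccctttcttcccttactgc
Robo3, chr9:37433126-37433425, minus strand: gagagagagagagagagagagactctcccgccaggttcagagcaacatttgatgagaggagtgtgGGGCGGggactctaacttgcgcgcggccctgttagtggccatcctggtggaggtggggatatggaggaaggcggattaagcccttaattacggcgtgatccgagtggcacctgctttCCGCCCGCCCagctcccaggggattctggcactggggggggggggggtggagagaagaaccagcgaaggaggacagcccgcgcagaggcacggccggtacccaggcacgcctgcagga

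The Robo4 window differed in composition from the other 3. It held 2 CpG dinucleotides and 50.3% G or C, no GC box and 1 CAGGAAG. The Robo3 window held 17 CpG, 63.3% G or C and 3 GC boxes, of which the last 2 share bases and lie on the strand opposite to the one printed. Sema7a held 23 CpG and Plxna2 25, each with 2 GC boxes. No window was listed for Ntn1, Efnb3, Sema6a, Slit1, Plxna4, Plxna4os1, Plxna1, Unc5d, Sema3b and Sema3f. Over the 74 windows found for the other 58 members the median was 18.5 CpG, against 7 over all 32851 windows in the table, and 70.3% of the members' windows held GGGCGG against 35.7% of all windows. The word CAGGAAG was in 12.2% of the members' windows and 13.3% of all windows, CCGGAA in 9.46% and 14.9%, and TATAAA in 2.7% and 13.6%. The windows of all 27025 genes were not chosen to resemble the members in type of gene or level. No contrast here is therefore shown to be particular to guidance genes. A match describes letters only and does not show a bound site. Among the 12 members at 100 TPM or above with a window, Robo4 had the fewest CpG, and the other 15 of their 16 windows held between 6 and 35.

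No guidance gene passed the test between diets. The test was limma on log2(TPM + 1) over the 13739 genes averaging 1 TPM or more, adjusted by Benjamini-Hochberg over all of them. Fold changes are PLX5622 over control on that scale, on which the added 1 makes differences of low genes look smaller. It covered 49 members and left out 19, and it called 0 of the 49, as it called 0% of all genes, with a smallest adjusted p of 0.99998 (limma). At an unadjusted p under 0.05 there were 2 members, which is 4.08% of those tested, beside 3.34% of all genes. Of the 2, 1 was higher on PLX5622 (1.64% of all genes were) and 1 lower (1.7% of all genes were). Complete separation of the diets was seen in 5 members, 10.2% of those tested, beside 8.68% of all genes: 3 were higher on PLX5622, beside 4.18% of all genes, and 2 lower, beside 4.5%. These shares were near the background. The median log2 fold change of the 49 members was -0.02, the same as over all genes tested (-0.02), with 24 members above 0 and 25 below, while 46.2% of all genes were above 0. The authors' deposited table, made with DESeq2, holds 56 members and calls 0 of them at an adjusted p under 0.05, beside 0.0729% of its 15097 genes, and it has 6 members at an unadjusted p under 0.05, 10.7% of them, beside 3.18% of all its genes. In the authors' deposited table these are 3 higher members, Sema7a, Efna5 and Sema3d, beside 1.55% of its genes, and 3 lower members, Plxna3, Plxna2 and Sema4a, beside 1.63%. Efna5 and Plxna3 averaged under 1 TPM and were not in the limma test.

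**Figure D2:**
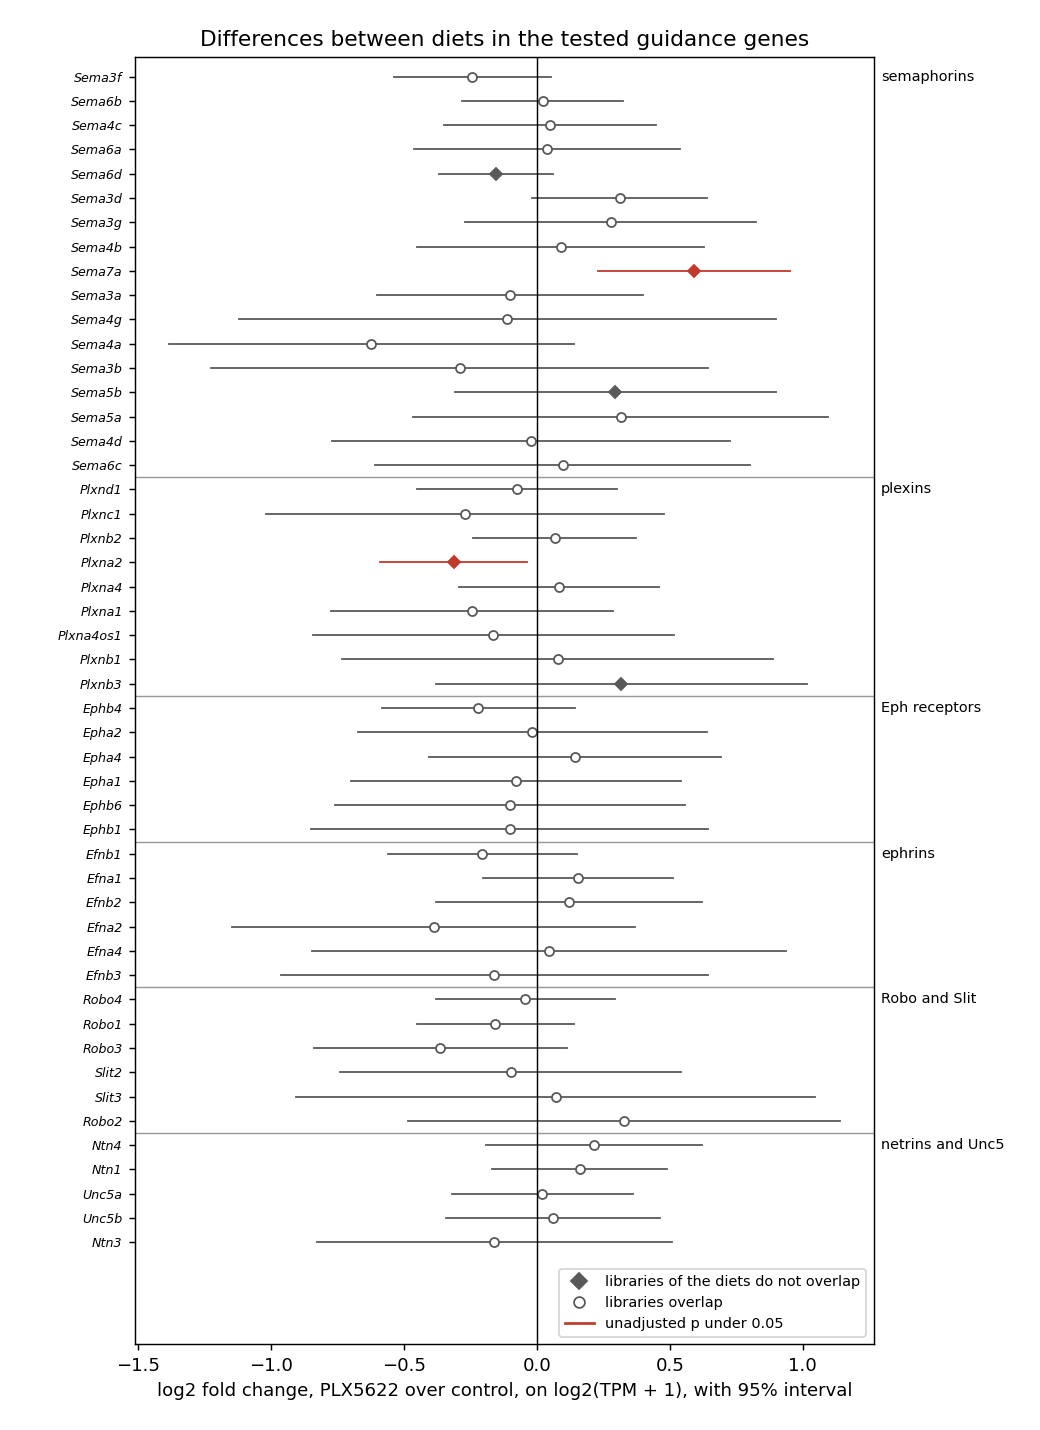
Log2 fold change of PLX5622 over control for the 49 tested guidance genes, with 95% intervals from limma, by family. Diamonds are the 5 genes whose libraries do not overlap between diets and red marks the 2 with an unadjusted p under 0.05, Sema7a above 0 and Plxna2 below 0; the other intervals all include 0.

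Among the semaphorins, Sema7a stood higher in PLX5622 libraries in every comparison of libraries. Sema7a encodes a semaphorin held in the membrane by a lipid anchor, which binds plexin C1 and beta-1 integrins and acts on leukocytes as well as axons. It had 25.7, 20.6 and 22.3 TPM in PLX5622 replicates 1 to 3, against 13.7, 13.6 and 17.3 TPM in control replicates 1 to 3. These rest on 660, 408 and 527 reads on PLX5622 and on 437, 514 and 288 reads on control. The lowest PLX5622 library lay above the highest control library, and the means were 22.9 ± 2.61 TPM on PLX5622 and 14.9 ± 2.10 TPM on control (SD, n = 3 each). The log2 fold change was 0.59 (95% interval 0.23 to 0.95, unadjusted p = 0.00569, adjusted p = 0.99998, limma). In the authors' deposited table it is 0.64 (SE 0.189) with an adjusted p of 0.328 (DESeq2), the smallest adjusted p of any member there. Without the libraries numbered 1 the limma value was 0.45 with an unadjusted p of 0.0523. Kupffer markers ran the opposite way between the diets, and their part in the Sema7a values was not tested.

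The secreted semaphorins were led by Sema3f, a ligand of neuropilin-2 that restrains vessel growth. It had 487, 400 and 408 TPM on PLX5622 against 558, 540 and 438 TPM on control, so that the highest PLX5622 library lay within the control range. Its log2 fold change was -0.24 (95% interval -0.54 to 0.05, limma). Sema3d, another class 3 ligand that acts on endothelium, had 65.6, 47.7 and 58.6 TPM on PLX5622 against 46.7, 49.5 and 41.0 TPM on control, a log2 fold change of 0.31 (95% interval -0.02 to 0.64, limma). Here PLX5622 replicate 2 lay inside the control range and the other PLX5622 libraries above it. As a share of the summed class 3 level, Sema3d made up 10.8% ± 0.698 on PLX5622 and 7.71% ± 0.440 on control, and Sema3f 81.3% ± 2.43 on PLX5622 and 86.1% ± 1.02 on control (SD, n = 3 each). Because Sema3f makes up most of the sum, its own level moves both shares, so they are not separate from the values above. The shares were not tested. Sema3g, a class 3 gene of arterial endothelium, overlapped between diets at 36.2, 24.0 and 44.4 TPM on PLX5622 and 33.2, 23.0 and 27.9 TPM on control, with a log2 fold change of 0.28 (95% interval -0.27 to 0.82, limma). It was 0.52, with no overlap (as in 14.7% of all genes), without PLX5622 replicate 2 and 0.087 without PLX5622 replicate 3. Sema3a stood between 3.90 and 5.78 TPM on PLX5622 and between 4.68 and 5.40 TPM on control, and Sema3b between 1.33 and 3.65 TPM on PLX5622 and between 1.97 and 5.49 TPM on control. Sema3c, a ligand of vessel and heart development, stayed between 7 and 15 reads in PLX5622 libraries and between 9 and 35 reads in control libraries.

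The membrane semaphorins were led by Sema6b, Sema4c, Sema6a and Sema6d. Sema6a and Sema6d are transmembrane ligands of class A plexins. Sema6d had 82.0, 82.6 and 80.0 TPM on PLX5622 against 83.0, 93.0 and 96.8 TPM on control. All PLX5622 values were under all control values, but control replicate 1 came within 1 TPM of the PLX5622 range, and the log2 fold change was -0.15 (95% interval -0.37 to 0.06, limma). Sema6b averaged 144 ± 21.7 TPM on PLX5622 and 141 ± 11.97 TPM on control, Sema4c 132 ± 28.3 TPM on PLX5622 and 126 ± 14.5 TPM on control, and Sema6a 118 ± 24.5 TPM on PLX5622 and 116 ± 27.2 TPM on control (SD, n = 3 each). In these 3 genes the libraries of the diets overlapped widely. Sema5b, a semaphorin with thrombospondin repeats, did not overlap, at 1.95, 2.67 and 2.17 TPM on PLX5622 against 1.54, 1.90 and 1.52 TPM on control, yet its log2 fold change of 0.29 had a 95% interval from -0.31 to 0.90 (limma), from 69 to 73 reads per PLX5622 library and 35 to 99 reads per control library.

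A pair of members are best known from immune cells. Sema4a, found on dendritic and T cells, had 2.05, 3.04 and 2.14 TPM on PLX5622 against 4.36, 2.51 and 6.49 TPM on control. PLX5622 replicate 2 lay above control replicate 2, so the diets overlapped, and the log2 fold change was -0.62 (95% interval -1.38 to 0.14, limma), while the authors' deposited table gives -0.86 (SE 0.423, adjusted p = 0.999, DESeq2). The limma value was -0.36 without control replicate 3 and -0.91, with no overlap (as in 18.7% of all genes), without control replicate 2. It was -0.33 with a pseudocount of 5 TPM. Within each diet the libraries ranked in Sema4a as they did in summed Kupffer markers: replicate 2 was highest on PLX5622 and replicate 3 on control. The part of macrophages in this value was not tested, and in sorted bulk samples fewer cells of a type and less RNA per cell cannot be told apart. Sema4d, of T cells and platelets, stood between 0.574 and 1.52 TPM on PLX5622 and between 0.918 and 1.23 TPM on control. Of the other class 4 to 6 genes, Sema4b stood between 19.5 and 28.2 TPM on PLX5622 and between 15.4 and 27.4 TPM on control. Sema4g stood between 2.33 and 7.65 TPM on PLX5622 and between 2.65 and 7.42 TPM on control. Sema5a and Sema6c stayed under 3 TPM, and Sema4f had a value above 0 in 1 control library alone. All of these overlapped between diets. The semaphorin family as a whole had 10 of 17 tested members above 0, with a median log2 fold change of 0.04.

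**Figure D3:**
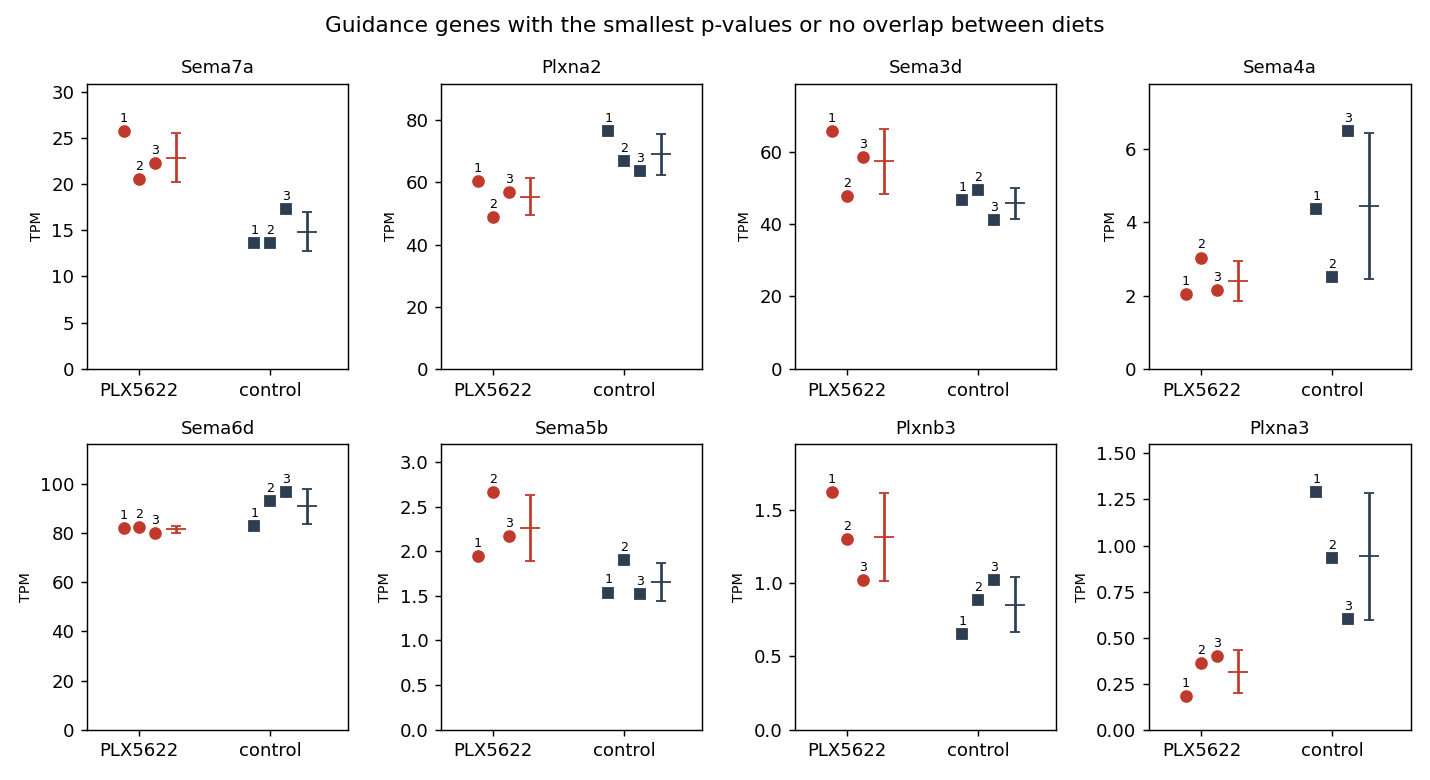
TPM in each library, numbered by replicate, for 8 guidance genes, with the mean and SD of each diet (n = 3) beside the points. The PLX5622 libraries of Sema7a, Sema5b and Plxnb3 lie above all control libraries and those of Plxna2, Sema6d and Plxna3 below them, while Sema3d and Sema4a overlap.

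Plexin D1 was the main plexin of these cells. Plxnd1, the receptor for Sema3E that is concentrated in endothelium, made up 58.5% ± 4.40 of the summed plexin level on PLX5622 and 56.4% ± 0.716 on control (SD, n = 3 each). It had 520, 680 and 662 TPM on PLX5622 against 526, 732 and 711 TPM on control, a log2 fold change of -0.08 (95% interval -0.45 to 0.30, limma). In both diets replicate 1 was the low library. Sema3e itself was listed at 0 throughout, while genes of other class 3 semaphorins were detected.

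Plxna2, a receptor for class 3 and class 6 semaphorins, was the plexin with the smallest p. It had 60.4, 49.0 and 56.9 TPM in PLX5622 libraries against 76.5, 67.0 and 63.6 TPM in control libraries. The highest PLX5622 library lay below the lowest control library, from at least 3250 reads in each. The means were 55.4 ± 5.83 TPM on PLX5622 and 69.0 ± 6.70 TPM on control (SD, n = 3 each), and the log2 fold change was -0.31 (95% interval -0.59 to -0.04, unadjusted p = 0.0319, adjusted p = 0.99998, limma). The authors' deposited table gives -0.31 (SE 0.140, adjusted p = 0.999, DESeq2). Without the libraries numbered 1 the limma value was -0.30, with an unadjusted p of 0.0503.

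Plxnc1, the receptor for Sema7A, depended on single control libraries. It had 179, 205 and 261 TPM on PLX5622 against 147, 342 and 336 TPM on control. With all libraries the diets overlapped and the log2 fold change was -0.27 (95% interval -1.02 to 0.48, limma). Without control replicate 1 alone it was -0.67, with an unadjusted p of 0.00368 (limma) and no overlap, while without PLX5622 replicate 1 alone it was -0.15. Control replicate 1 was the control library below the PLX5622 range, so leaving it out separates the diets by construction. In that fit 22.8% of all genes did not overlap and 6.16% had an unadjusted p under 0.05. Leaving out control replicate 2 gave -0.06, and leaving out control replicate 3 gave -0.08. Without the libraries numbered 1 of both diets, a setting chosen after seeing the data, it was -0.55 with an unadjusted p of 0.00798 and no overlap, the 1 member of 49 at an unadjusted p under 0.05 in that fit (2.04%, beside 5.68% of all genes); 18 of the 49 then did not overlap (36.7%, beside 36.2% of all genes). The sinusoidal endothelial markers were low in the same 2 libraries. The part of that mix of cells in Plxnc1 was not tested.

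The other plexins had lower levels. Plxnb2, a receptor for class 4 semaphorins, averaged 105 ± 17.3 TPM on PLX5622 and 99.1 ± 5.36 TPM on control (SD, n = 3 each). Plxna1 overlapped, at 27.6, 14.9 and 22.8 TPM on PLX5622 against 29.0, 21.6 and 25.6 TPM on control (log2 fold change -0.24, 95% interval -0.77 to 0.29, limma). PLX5622 replicate 2 carried this value, which was -0.007 without it and -0.43 without PLX5622 replicate 1. Plxna4 stood between 31.4 and 41.3 TPM on PLX5622 and between 28.9 and 40.1 TPM on control. Plxna4os1, at 1.41 to 2.34 TPM on PLX5622 and 1.47 to 2.49 TPM on control, overlaps Plxna4. Since the libraries do not keep strand, some of its reads may belong to Plxna4. Plxnb3 did not overlap, at 1.62, 1.30 and 1.02 TPM on PLX5622 against 0.650, 0.887 and 1.02 TPM on control, but its nearest libraries differed by less than 0.01 TPM and its log2 fold change of 0.32 had a 95% interval from -0.38 to 1.01 (limma). Plxna3, a receptor that pairs with neuropilin-2, was too low for the limma test. It had 10, 15 and 20 reads in PLX5622 libraries and 87, 74 and 21 reads in control libraries, which gave 0.185, 0.359 and 0.402 TPM on PLX5622 against 1.29, 0.933 and 0.599 TPM on control. The authors' deposited table puts it at -1.59 on the log2 scale, with an SE of 0.587 and an adjusted p of 0.988 (DESeq2). Plxnb1, a receptor for Sema4D, stood between 0.657 and 2.04 TPM on PLX5622 and between 0.875 and 1.66 TPM on control. Of 9 plexin rows tested, 4 were above 0 and 5 below, with a median of -0.08.

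Eph receptors were led by Ephb4 and Epha2. Ephb4, the venous receptor for ephrin-B2, made up 98.8% ± 0.537 of the summed EphB level on PLX5622 and 98.9% ± 0.193 on control (SD, n = 3 each). It had 479, 321 and 444 TPM on PLX5622 against 503, 432 and 496 TPM on control, with PLX5622 replicate 2 below all other libraries, and its log2 fold change was -0.22 (95% interval -0.58 to 0.14, limma). Without that library the value was -0.046. Epha2, a receptor of endothelium and epithelium that binds ephrin-A1, had 134, 102 and 65.2 TPM on PLX5622 and 133, 81.8 and 85.3 TPM on control, highest in replicate 1 of each diet. Epha4, which binds ephrins of both classes, followed the same pattern with 31.9, 20.1 and 26.2 TPM on PLX5622 and 31.2, 18.1 and 21.7 TPM on control. Epha1 stood between 7.83 and 11.4 TPM on PLX5622 and between 6.95 and 13.7 TPM on control, and by RefSeq it overlaps the Zyx gene, so that some of its reads may belong to Zyx. Ephb6, a receptor without kinase activity, and Ephb1 stayed under 4 TPM in every library. Epha7 was untested, and its PLX5622 libraries, at 0.740, 0.667 and 1.27 TPM, lay above its control libraries, at 0.645, 0.395 and 0.545 TPM. The other Eph genes, Epha3, Epha6, Epha8, Epha10, Ephb2 and Ephb3, stayed under 0.5 TPM in every library. Of the 6 Eph receptor genes tested, 1 was above 0 and 5 below, with a median of -0.09.

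The ephrin ligands were led by Efnb1, Efna1 and Efnb2. Efnb1, a ligand of EphB receptors that sits on the X chromosome, had 268, 317 and 286 TPM on PLX5622 against 271, 410 and 334 TPM on control, and the diets overlapped (log2 fold change -0.20, 95% interval -0.56 to 0.15, limma). The value was -0.056 without control replicate 2 and -0.35, with no overlap (as in 22.8% of all genes), without control replicate 1. Efnb2, the arterial ligand of EphB4, had 96.6, 156 and 125 TPM on PLX5622 against 88.0, 139 and 120 TPM on control, a log2 fold change of 0.12 (95% interval -0.38 to 0.62, limma). Within each diet the library lowest in Efnb2 was replicate 1 and the library highest was replicate 2. Ephb4 ran the other way, lowest in replicate 2 and highest in replicate 1 of each diet.

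The ephrin-A genes showed a steep order of levels in 1 cluster. Efna1, Efna3 and Efna4 are neighbours on chromosome 3. Efna1, an endothelial ligand induced by inflammatory cytokines, had 215, 262 and 269 TPM on PLX5622 and 185, 220 and 270 TPM on control, while Efna4 stood between 2.08 and 5.39 TPM on PLX5622 and between 2.11 and 4.39 TPM on control, and Efna3 between 0.437 and 1.10 TPM on PLX5622 and between 0.585 and 1.76 TPM on control. The log2 fold change of Efna1 was 0.16 (95% interval -0.20 to 0.51, limma), and 0.023 without control replicate 1. Efna2 had 18.6, 12.8 and 12.8 TPM on PLX5622 against 33.0, 13.4 and 16.2 TPM on control, and its value of -0.39 (95% interval -1.14 to 0.37, limma) leaned on control replicate 1, the library richest in hepatocyte markers: without it the value was -0.015. On PLX5622 Efna2 was also highest in replicate 1, the library with the lowest hepatocyte marker sum, 1129 TPM. Replicate 1 of each diet was low in sinusoidal and high in central vein markers. The part of hepatocyte RNA or of that mix of cells in Efna2 was not tested. Efna5, a ligand with a lipid anchor, was too low for the limma test. It had 60, 38 and 44 reads in PLX5622 libraries and 33, 44 and 10 reads in control libraries, or 1.47, 1.20 and 1.17 TPM on PLX5622 against 0.647, 0.733 and 0.376 TPM on control, without overlap. The authors' deposited table gives 1.11 (SE 0.501, adjusted p = 0.999, DESeq2). Efnb3 stayed under 4 TPM in every library, and 3 of 6 ephrin genes tested were above 0.

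Robo4 made up 91.7% ± 1.04 of the summed Robo and Slit level on PLX5622 and 90.8% ± 2.74 on control (SD, n = 3 each). It had 509, 577 and 589 TPM on PLX5622 against 463, 628 and 651 TPM on control, with replicate 1 lowest in both diets, and its log2 fold change was -0.04 (95% interval -0.38 to 0.29, limma). Its neighbour Robo3, a divergent receptor of commissural axons, had 8.86, 5.81 and 7.76 TPM on PLX5622 against 11.2, 9.37 and 8.84 TPM on control. PLX5622 replicate 1 lay just above control replicate 3, and the log2 fold change was -0.36 (95% interval -0.84 to 0.11, limma). Robo1, the broadly expressed Slit receptor, had 30.3, 27.2 and 35.8 TPM on PLX5622 against 34.8, 33.9 and 34.9 TPM on control (log2 fold change -0.16, 95% interval -0.45 to 0.14, limma), and without single libraries the value ran from -0.26 to -0.067. The Slit genes were low. Slit2 stood between 5.10 and 7.38 TPM on PLX5622 and between 5.35 and 10.2 TPM on control, and Slit3 between 2.80 and 4.24 TPM on PLX5622 and between 1.40 and 6.52 TPM on control. Both were highest in control replicate 1. Slit1 had 8 to 13 reads per PLX5622 library and 8 to 41 reads per control library, and Robo2 stayed under 3 TPM.

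Ntn4 made up 79.5% ± 4.13 of the summed netrin and Unc5 level on PLX5622 and 78.2% ± 4.06 on control (SD, n = 3 each). It had 589, 827 and 750 TPM on PLX5622 against 497, 720 and 653 TPM on control. Each PLX5622 library lay above the control library of the same number. The libraries still interleaved, since within each diet replicate 1 was lowest and replicate 2 highest, and the log2 fold change was 0.21 (95% interval -0.19 to 0.62, limma). Without control replicate 1 it was 0.06, and without PLX5622 replicate 1 it was 0.35 with no overlap (as in 19.9% of all genes). Ntn1, the netrin with the longest history in axon guidance, had 130, 103 and 124 TPM on PLX5622 against 127, 98.1 and 95.3 TPM on control, a log2 fold change of 0.16 (95% interval -0.17 to 0.49, limma), which ran from 0.086 without control replicate 3 to 0.29 without control replicate 1. Among the receptors, Unc5a averaged 42.7 ± 1.73 TPM on PLX5622 and 42.6 ± 7.70 TPM on control, and Unc5b 18.7 ± 1.13 TPM on PLX5622 and 18.2 ± 3.85 TPM on control (SD, n = 3 each). The 2 receptors thus stood in the order Unc5a above Unc5b in every library, with the caution that Unc5a overlaps Hk3 in the RefSeq annotation. Ntn3 and Ntn5 overlap Tbc1d24 and Sec1 there. Ntn3 stood between 1.54 and 2.02 TPM on PLX5622 and between 1.36 and 2.50 TPM on control. Ntn5 had 13, 0 and 1 reads in PLX5622 libraries and 25, 23 and 7 reads in control libraries, and Unc5cl was listed at 0 in the PLX5622 libraries and stayed under 0.5 TPM in control libraries.

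**Figure D4:**
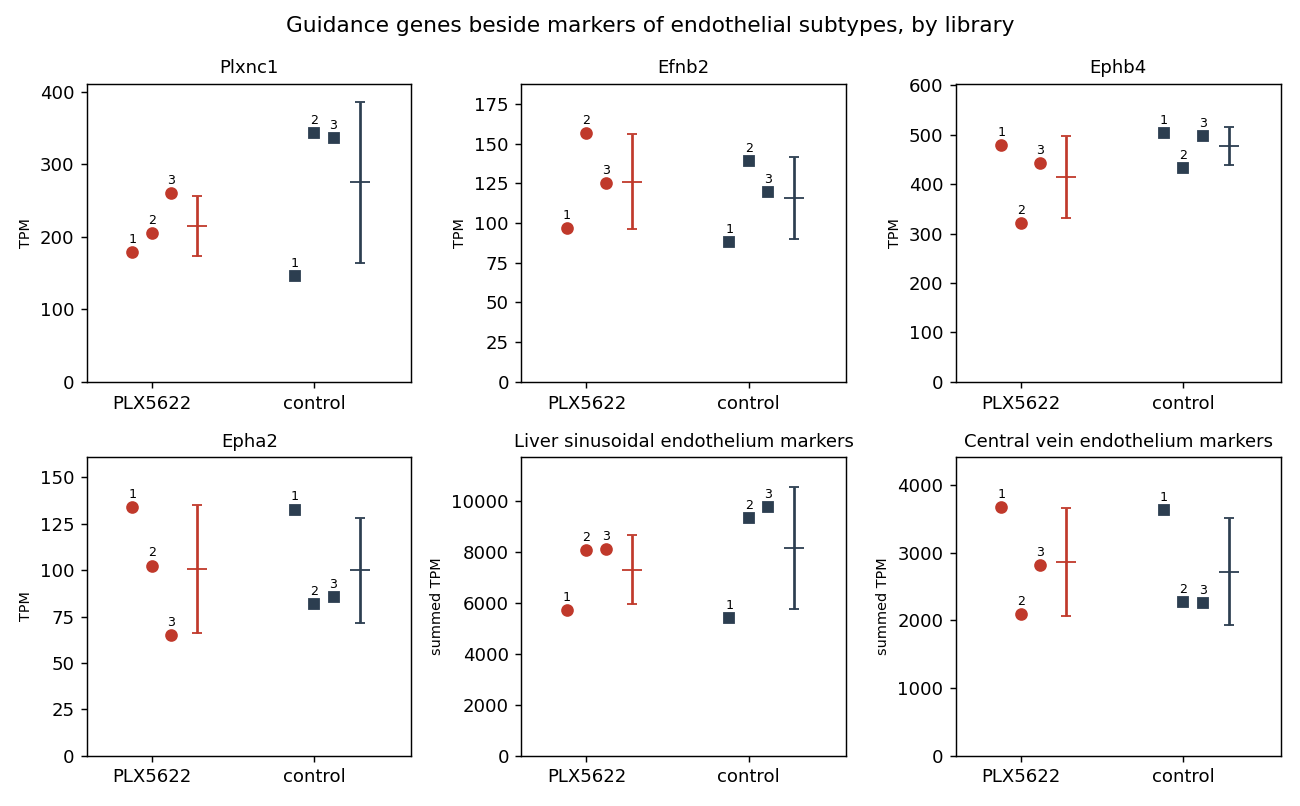
TPM of Plxnc1, Efnb2, Ephb4 and Epha2 and the summed TPM of sinusoidal and central vein markers in each library, numbered by replicate, with the mean and SD of each diet (n = 3). Replicate 1 of both diets is low in Plxnc1, Efnb2 and sinusoidal markers and high in Ephb4, Epha2 and central vein markers.

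Coreceptors and intracellular partners were read from a list of 61 genes, of which 52 were tested. None of the 52 passed the adjusted threshold (limma), and at an unadjusted p under 0.05 there were 3 of the 52, beside 3.34% of all genes. Of the 3, 2 were lower on PLX5622, beside 1.7% of all genes, and 1 was higher, beside 1.64%. The diets did not overlap in 7 of the 52, beside 8.68% of all genes. As shares of the 52, both the 3 and the 7 were above those of all genes. They rest on few genes and were not tested. Arhgef15, an endothelial exchange factor that acts downstream of Eph receptors, had 200, 197 and 236 TPM on PLX5622 against 239, 287 and 291 TPM on control. All PLX5622 values were under all control values, and the log2 fold change was -0.37 (95% interval -0.63 to -0.10, unadjusted p = 0.0139, limma). Rras2, a GTPase related to the R-Ras target of plexins, had 41.7, 30.0 and 34.1 TPM on PLX5622 against 51.7, 39.8 and 45.0 TPM on control, which overlapped (log2 fold change -0.36, 95% interval -0.72 to -0.01, limma). Flrt3, a membrane protein that binds Unc5 receptors, had 12.8, 14.7 and 9.13 TPM on PLX5622 against 7.97, 8.34 and 7.98 TPM on control, without overlap (log2 fold change 0.52, 95% interval 0.05 to 0.99, limma). Over the 18 alternatives an unadjusted p under 0.05 was kept in 16 for Arhgef15, 12 for Flrt3 and 9 for Rras2 (limma). These genes were named for their p in the main fit, and the alternatives refit the same libraries. Such counts show dependence on settings only and are no separate evidence of a difference. The median log2 fold change of the 52 partner genes was -0.08, beside -0.02 over all genes tested.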

How the data were processed

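RNA of CD31-sorted liver endothelial cells was measured in 3 PLX5622 and 3 control libraries, non-stranded and from polyadenylated RNA per the labels' protocols. Titles gave the group and the number of each library; the labels call the libraries biological replicates and name no animals, so p-values measure only the spread between these libraries. Per the submitters' processing notes, the authors used DESeq2 1.32.0 under R 4.1.0, featureCounts, Subread 2.0.1 and STAR 2.7.10a, with build mm39 and no stated roles. Which annotation and filters they chose is not given in the sources used here. For 26264 genes the authors deposited TPM. The authors' comparison table gives, as deposited, a mean normalized signal, a log2 fold change with its SE, a Wald score, and p-values raw and adjusted for 15097 genes.

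For 13739 genes averaging 1 TPM or more, log2(TPM + 1) was tested by limma 3.58.1 (R 4.3.3, trended prior variance), at an adjusted p of 0.05. Read numbers were recovered for the 15097 genes from TPM and the deposited means: in each library 100% of values below 50 lay no more than 0.05 from an integer. They cover counting error only. Both steps were tested on simulated data. For limma these were drawn at a fixed spread without differences in cell mix, so they do not give the power of the test in these libraries. A level per library was read from TPM, which corrects for length. Members were matched by symbol. RefSeq places 36 of 68 over another annotated gene, small RNAs and pseudogenes included. Whether exons are shared was not examined. Where they are, reads cannot be told apart without strand. Of the 36, 7 lie over a protein-coding gene that is no member, among them Plxna1 and Sema3b, and Plxna4os1 lies over Plxna4. Promoters for 58 members came from the RefSeq table.

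The members and lists were chosen with earlier results of these data known, so no list was tested. Genes were named by rule: per subfamily the highest levels and smallest p, all without overlap or with an unadjusted p under 0.05, and a fixed set; Epha7 and other members outside the rule are given so that every member is accounted for, a choice made with their values known. The alternatives were 18, among them other pseudocounts, filters, scalings and limma settings, voom on recovered reads, a replicate block and leaving out each library. The fit without the libraries numbered 1 was added after seeing the data.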

Additional observations from a re-analysis of the deposited data

How the results depend on the processing

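Under all 18 alternatives limma called 0 guidance genes, 0 partner genes and 0 of all genes at an adjusted p under 0.05. The count of members with an unadjusted p under 0.05 was 2 (4.08% of those tested, beside 3.34% of all genes). It was 5 with no filter on low values (7.81% beside 3.66%), 1 with limma without the trend (2.04% beside 3.57%), 6 with voom on recovered reads (10.7% beside 3.04%), 4 with the replicate block (8.16% beside 5.98%), 1 without the libraries numbered 1 (2.04% beside 5.68%), and without single libraries between 1 (2.04% beside 3.07%) and 5 (10.2% beside 6.16%). The count without overlap was 5 (10.2% beside 8.68%). It was 8 with no filter (12.5% beside 7.92%), 7 with voom on recovered reads (12.5% beside 8.74%), 3 when genes had to average 5 TPM (9.68% beside 8.63%), 3 with median-of-ratios scaling (6.12% beside 8.85%) and 3 with quantile normalization (6.12% beside 8.46%). With fewer libraries more genes separate by construction: it was 18 without the libraries numbered 1 (36.7% beside 36.2%), and without single libraries between 7 (14.3% beside 16.6%) and 12 (24.5% beside 22.8%). The semaphorin median of 0.04 was -0.025 without the libraries numbered 1 and between -0.044 and 0.136 without single libraries, and the ephrin median of -0.06 was between -0.226 and 0.104 without single libraries. In the same way the plexin median ran from -0.128 to 0.008, that of Eph receptors from -0.182 to -0.011, that of Robo and Slit genes from -0.204 to 0.01 and that of netrin and Unc5 genes from -0.082 to 0.106; the plexin median was -0.16 when genes had to average 5 TPM and the Eph median 0.003 with voom, so no family median has a firm sign. The filters, the trend, robust fitting and the replicate block leave a log2 fold change as it was, so values under them could not change sign. With these included, the fold changes of 25 genes gave 447 values under alternatives, of which 440 had the same sign. Those that changed sign were Plxnd1 at 0.047 without PLX5622 replicate 1 and 0.011 without control replicate 2, Efnb2 at -0.047 without PLX5622 replicate 2 and -0.061 without control replicate 1, and Robo4 at 0.023 without PLX5622 replicate 1, 0.022 without control replicate 2 and 0.048 without control replicate 3. Without single libraries Efnb2 ranged up to 0.298 (without PLX5622 replicate 1) and Robo4 down to -0.198 (without control replicate 1); the cause was not tested. Sema7a was between 0.45 and 0.70 over the alternatives and had an unadjusted p under 0.05 in 17 of 18 (limma). Plxna2 was between -0.38 and -0.23 and had one in 12 of 18. Both were named for their p in the main fit, and the alternatives refit the same libraries, so these counts are no separate evidence. Same-numbered libraries of the diets correlated in their deviations at 0.196, 0.136 and 0.087, each the best match of its libraries. The deviations of each diet sum to 0 by construction, so these correlations depend on each other and are not separate observations. They are at most a hint of pairing from the data and not from the design. The replicate block moved the count of members at an unadjusted p under 0.05 to 4, with the all-gene share given above. They were Sema7a, Plxna2, Ntn4 (unadjusted p = 0.0209, adjusted p = 0.81667) and Sema3f (unadjusted p = 0.0345, adjusted p = 0.81667), by limma with the block. With 3 libraries per diet, low genes such as Plxna3, Efna5 and Slit1 rest on few reads in each library.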
